A study of Mus musculus with 5 samples.

Results

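The 10 genes described here are the main parts of the Notch signalling pathway that the vessels and stem cells of skeletal muscle use: the receptors Notch1, Notch2, Notch3 and Notch4, the ligands Dll4, Jag1 and Jag2, and the target genes Hes1, Hey1 and Heyl. They were taken by symbol from the 55357 gene entries of the deposited tables, and each of the 10 had exactly 1 entry. Their transcripts were counted as UMIs, the tags that mark single captured RNA molecules, in cells of the tibialis anterior, the shin muscle of the mouse. There were 2 libraries from frail mice, named case1 and case2 in the labels, and 3 libraries from control mice. All 5 came from female C57BL/6 mice aged 26 months, with no transgene or treatment named, so both groups were old. A frail mouse had a frailty index of 0.18 or more on a list of health deficits and a control mouse one below it. The series is titled for GDF15, for GFRAL to which it binds, and for sarcopenia risk. The series text counts each library as 1 mouse, and the labels describe the preparation in 2 ways, as enzyme-digested whole cells and as sorted nuclei. Barcodes are called cells below.

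Notch receptors are cut when a ligand on a neighbouring cell pulls on them, and the freed inner part enters the nucleus, joins the DNA-binding protein Rbpj and switches on genes of the Hes and Hey families, which encode transcriptional repressors. In vessels, Dll4 and Notch1 set which endothelial cells sprout and which take an arterial fate, while endothelial Jag1 signals to Notch3 on the smooth muscle cells and pericytes of the wall, together called mural cells. In skeletal muscle, Notch activity keeps the Pax7-expressing satellite cells, the stem cells of the fibre, in quiescence, with Hey1 and Heyl among the targets that do so.

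Of the results below, the largest difference between endothelial and mural cells was that of Notch3 on the mural side and that of Dll4 on the endothelial side, so the upstream sequences of these genes are shown, together with that of the endothelial receptor Notch4. RefSeq promoters on build GRCm38.p6 were matched for 7 of the 10 genes by symbol, and Hes1, Hey1 and Heyl were not matched. The 250 bases before each start are printed 5′ to 3′ on the gene's own strand. Capitals mark AGGAAG or its reverse complement CTTCCT, a form of the core bound by ETS factors, the family that includes the endothelial regulator Erg.
Notch4, chr17:34564045-34564294, plus strand: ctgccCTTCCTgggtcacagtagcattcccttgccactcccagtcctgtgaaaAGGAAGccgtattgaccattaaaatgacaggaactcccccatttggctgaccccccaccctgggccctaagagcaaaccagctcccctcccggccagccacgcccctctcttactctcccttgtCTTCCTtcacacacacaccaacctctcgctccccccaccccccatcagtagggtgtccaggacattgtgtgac
Dll4, chr2:119325534-119325783, plus strand: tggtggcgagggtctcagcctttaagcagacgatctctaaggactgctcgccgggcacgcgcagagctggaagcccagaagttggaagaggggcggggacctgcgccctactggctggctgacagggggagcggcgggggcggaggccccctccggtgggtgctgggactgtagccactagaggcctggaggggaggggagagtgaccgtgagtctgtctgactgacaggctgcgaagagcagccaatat
Notch3, chr17:32166891-32167140, minus strand: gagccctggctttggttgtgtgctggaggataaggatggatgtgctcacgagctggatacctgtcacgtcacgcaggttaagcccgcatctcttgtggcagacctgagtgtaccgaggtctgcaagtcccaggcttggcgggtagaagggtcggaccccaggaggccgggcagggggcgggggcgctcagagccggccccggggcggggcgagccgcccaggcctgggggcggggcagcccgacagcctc

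AGGAAG occurred at 3 places in the Notch4 window, 1 on the plus and 2 on the minus strand. It occurred at none in the Dll4 or Notch3 windows, nor in those of Notch1, Notch2, Jag1 and Jag2. Of all 32851 RefSeq promoter windows of the same length, 29.5% held it on either strand. Shorter forms of the ETS core were not searched for, and the Dll4 window printed above does hold ggaag. The Rbpj core TGGGAA (reverse complement TTCCCA) stood in 21.6% of all windows and in none of the 7, and the palindrome CACGTG, an E-box that Hey proteins can bind, stood in 6.02% of all windows and in none of the 7. These matches describe letters in these windows and nothing about binding.

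The 5 tables held 56922 barcodes, of which 50460 were retained because 200 or more genes were detected in them and no more than 10% of their UMIs were mitochondrial. Total UMIs were 72043464 and 70155746 in the frail libraries and 68170531, 71140868 and 90942121 in the control libraries. The frail 1 library lost more barcodes to the mitochondrial limit (17.2%) than the others (7.49% to 11.2%). Any pair of libraries shared 27 to 49 barcode sequences, at most 0.456% of the smaller one. Retained cells were put into classes by their UMIs of genes outside the set of 10. A cell with at least 2 UMIs of Cdh5, the endothelial cadherin, was called endothelial and was then split in the order Gja5 (at least 2 UMIs), Vwf, Rbp7 and Gpihbp1 (at least 3 each). Mural cells had at least 3 UMIs of Rgs5 or Myh11, and at least 2 UMIs marked the Pdgfra cells, which are fibro-adipogenic progenitors, and the Pax7 satellite cells. A cell that passed the gates of several lineages was put in none.

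The 8 classes held 391 Gja5, 1627 Rbp7, 6957 Gpihbp1, 820 Vwf, 2973 Rgs5, 1660 Myh11, 13141 Pdgfra and 610 Pax7 cells, with at least 31 cells of each class in every library. Markers that the gates had not used fitted most of these names. The arterial kinase gene Bmx averaged 137 CPM in Gja5 cells and 1.62 CPM in Gpihbp1 cells, where CPM is the gene's UMIs per 1000000 UMIs of that class in that library. The venule gene Selp averaged 336 CPM in Vwf cells and 3.01 CPM in Gpihbp1 cells, but the Vwf cells also held the arterial genes Sox17 (238 CPM), Bmx (29.9 CPM) and Gja4 (29.4 CPM). They are therefore called Vwf cells and not venous cells. A list of 5 venous genes (Nr2f2, Ackr1, Selp, Lrg1 and Vcam1) summed to 139.6 to 459 CPM in Gja5 cells, with up to 2 at 0 in a library. In Gpihbp1 cells it summed to 82.04 to 121 CPM and in Vwf cells to 1113 to 2002 CPM. The pericyte gene Kcnj8 averaged 1087 CPM in Rgs5 cells, Acta2 of smooth muscle 22145 CPM in Myh11 cells, Dcn 20621 CPM in Pdgfra cells and the satellite cell gene Myf5 210.3 CPM in Pax7 cells. A list of 5 smooth muscle genes (Acta2, Tagln, Cnn1, Myl9 and Lmod1) summed to 43427 to 54148 CPM in Myh11 cells. In Rgs5 cells it still summed to 4730 to 14643 CPM, while 5 pericyte genes there summed to 2375 to 5732 CPM. The Rgs5 cells also held transcripts of endothelium: 6 endothelial genes (Pecam1, Egfl7, Cldn5, Kdr, Emcn and Tie1) summed to 244 to 549.5 CPM in Rgs5 cells and to 52.3 to 85.4 CPM in Myh11 cells, with none of the 6 at 0 in any library. A list of 4 capillary genes (Car4, Cd36, Aqp1 and Fabp4) summed to 3114 to 7707 CPM in Rgs5 cells and to 397 to 935 CPM in Myh11 cells. It summed to 20370 to 60165 CPM in Rbp7, 23285.5 to 56017 CPM in Gpihbp1 and 8891 to 24538 CPM in Gja5 cells. A list of 5 arterial genes (Sox17, Gja4, Bmx, Fbln5 and Stmn2) summed to 777 to 1347 CPM in Rbp7 cells. In Gpihbp1 and Gja5 cells that arterial list summed to 256 to 447 CPM and to 1950 to 3054 CPM. The Rbp7 cells thus held both capillary and arterial genes. Between 9.90% and 16.7% of retained cells per library passed several lineage gates, and 70.2% to 89.3% of these passed both the Cdh5 and a mural gate.

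**Figure D1:**
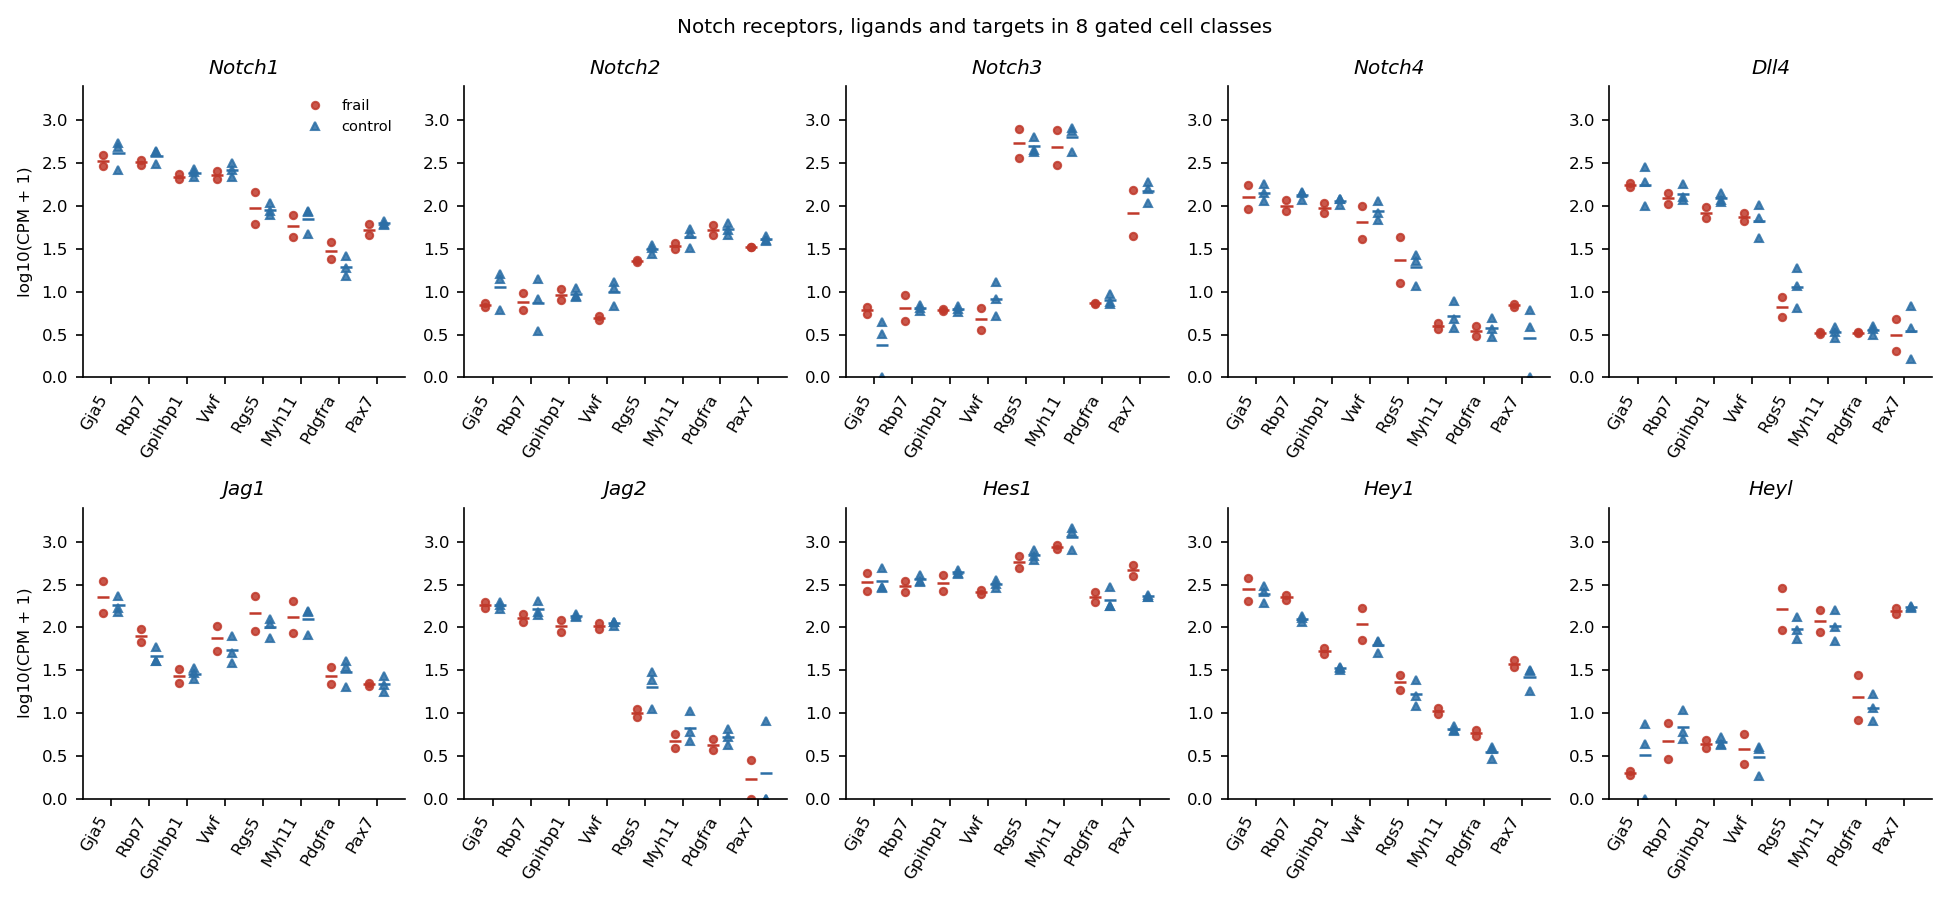
Level of the 10 genes in 8 gated classes, as log10(CPM + 1) on the vertical axis. Each point is 1 library (circles frail, triangles control), and short bars are means of the 2 frail or 3 control values. Notch4, Dll4 and Jag2 are high in the 4 endothelial classes on the left of each panel, Notch3 and Heyl in the Rgs5, Myh11 and Pax7 classes, and Notch2 in the Pdgfra class.

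The 4 receptors each had a different distribution over the classes. Notch1, the receptor through which Dll4 acts in endothelium, averaged 394 ± 120.2 CPM in Gja5 cells, 362 ± 64.96 CPM in Rbp7 cells, 252 ± 46.5 CPM in Vwf cells and 235 ± 26.4 CPM in Gpihbp1 cells (SD, n = 5 libraries, as for all means below). It was at 95.1 ± 32.04 CPM in Rgs5 cells, 67.01 ± 20.97 CPM in Myh11 cells, 57.99 ± 8.0 CPM in Pax7 cells and 23.4 ± 8.62 CPM in Pdgfra cells. In that order of 8 classes, the ranges over libraries separated only Gpihbp1 from Rgs5 cells and Pax7 from Pdgfra cells, and all other neighbours overlapped. Notch4, a receptor known for its expression in endothelium, averaged 140.2 ± 38.9 CPM in Gja5, 120.5 ± 23.7 CPM in Rbp7, 106 ± 15.7 CPM in Gpihbp1 and 80.6 ± 28.2 CPM in Vwf cells. It was at 22.5 ± 12.96 CPM in Rgs5 cells and at 2.72 to 3.96 CPM on average in Pax7, Myh11 and Pdgfra cells, and of the neighbours in its order only Rgs5 and Pax7 cells did not overlap.

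Notch3, the receptor that mural cells need to keep their smooth muscle character, had 303 and 764 CPM in Myh11 cells of the frail libraries and 811, 741 and 419.9 CPM in those of the control libraries. In Gpihbp1 cells it had 4.90 and 5.24 CPM in the frail libraries and 4.82, 5.33 and 5.84 CPM in the control libraries. Its means were 608 ± 229.7 CPM in Myh11 cells, 533 ± 178 CPM in Rgs5 cells and 129.6 ± 56.4 CPM in Pax7 cells, with ranges of 303 to 811 CPM, 365 to 788 CPM and 44.04 to 191 CPM. The ranges of Myh11 and Rgs5 cells overlapped, while those of Rgs5 and Pax7 cells and those of Pax7 cells and every lower class did not. In the remaining 5 classes its mean was 3.14 to 6.78 CPM. Notch2, a receptor with roles in mural and satellite cells, ran the other way from Notch1: it averaged 52.6 ± 8.21 CPM in Pdgfra cells, 39.6 ± 9.77 CPM in Myh11 cells, 36.7 ± 4.81 CPM in Pax7 cells and 27.2 ± 5.39 CPM in Rgs5 cells, and 7.15 to 9.07 CPM in the 4 endothelial classes. Only the step from Rgs5 cells to the endothelial classes was free of overlap.

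Among the ligands, Dll4, the endothelial ligand of sprouting and arterial fate, had 95.5 and 71.9 CPM in Gpihbp1 cells of the frail libraries and 111, 118 and 139 CPM in those of the control libraries. In Myh11 cells it had 2.34 and 2.19 CPM in the frail libraries and 1.87, 2.91 and 2.40 CPM in the control libraries. Its means were 184 ± 65.5 CPM in Gja5, 134 ± 30.3 CPM in Rbp7, 107 ± 25.1 CPM in Gpihbp1 and 72.02 ± 21.8 CPM in Vwf cells. Every endothelial class lay above every other class in every library, and the next highest were the Rgs5 cells at 9.15 ± 5.49 CPM. Jag2 had the same order: 181 ± 16.4 CPM in Gja5, 151 ± 32.9 CPM in Rbp7, 124 ± 21.3 CPM in Gpihbp1, 108 ± 9.14 CPM in Vwf and 16.2 ± 9.37 CPM in Rgs5 cells, with 1.78 to 5.19 CPM in the other 3 classes. For both ligands, neighbouring endothelial classes overlapped in their ranges, and the Vwf cells did not overlap with the Rgs5 cells. Jag1, the ligand with which endothelium instructs the vessel wall and which mural cells can also display, averaged 209 ± 83.6 CPM in Gja5 cells, 135 ± 51.5 CPM in Myh11 cells, 126 ± 63.3 CPM in Rgs5 cells, 64.5 ± 26.3 CPM in Vwf cells and 60.05 ± 22.8 CPM in Rbp7 cells. It was at 29.2 ± 8.82 CPM in Pdgfra, 27.5 ± 4.72 CPM in Gpihbp1 and 20.9 ± 3.34 CPM in Pax7 cells, so that within endothelium the Gja5 cells lay above the mural means and the other classes below them. Only Rbp7 and Pdgfra cells, neighbours in this order, had ranges that did not overlap, and by a narrow margin.

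Of the targets, Hes1, a repressor that many pathways besides Notch can induce, was detected at a mean of 220.0 CPM or more in all 8 classes. It averaged 1049.6 ± 292 CPM in Myh11 cells and 653 ± 113 CPM in Rgs5 cells, whose ranges did not overlap with each other or with the next class, and 220.0 to 400.0 CPM in the other 6 classes, all of which overlapped with their neighbours. Hey1 averaged 266 ± 77.8 CPM in Gja5, 165 ± 55.3 CPM in Rbp7, 84.9 ± 47.96 CPM in Vwf, 40.7 ± 11.5 CPM in Gpihbp1, 30.4 ± 8.41 CPM in Pax7 and 18.8 ± 6.31 CPM in Rgs5 cells. It was at 7.16 ± 2.39 CPM in Myh11 and 3.51 ± 1.40 CPM in Pdgfra cells, with Rgs5 and Myh11 cells as the only neighbours that did not overlap. Heyl, a target of Notch3 in smooth muscle and a gene of quiescent satellite cells, was at 166 ± 13.02 CPM in Pax7, 135 ± 87.03 CPM in Rgs5 and 116 ± 41.9 CPM in Myh11 cells, at 13.6 ± 8.38 CPM in Pdgfra cells, and at 2.40 to 5.50 CPM in the 4 endothelial classes. The ranges of the first 3 classes overlapped, and Myh11 and Pdgfra cells did not.

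**Figure D2:**
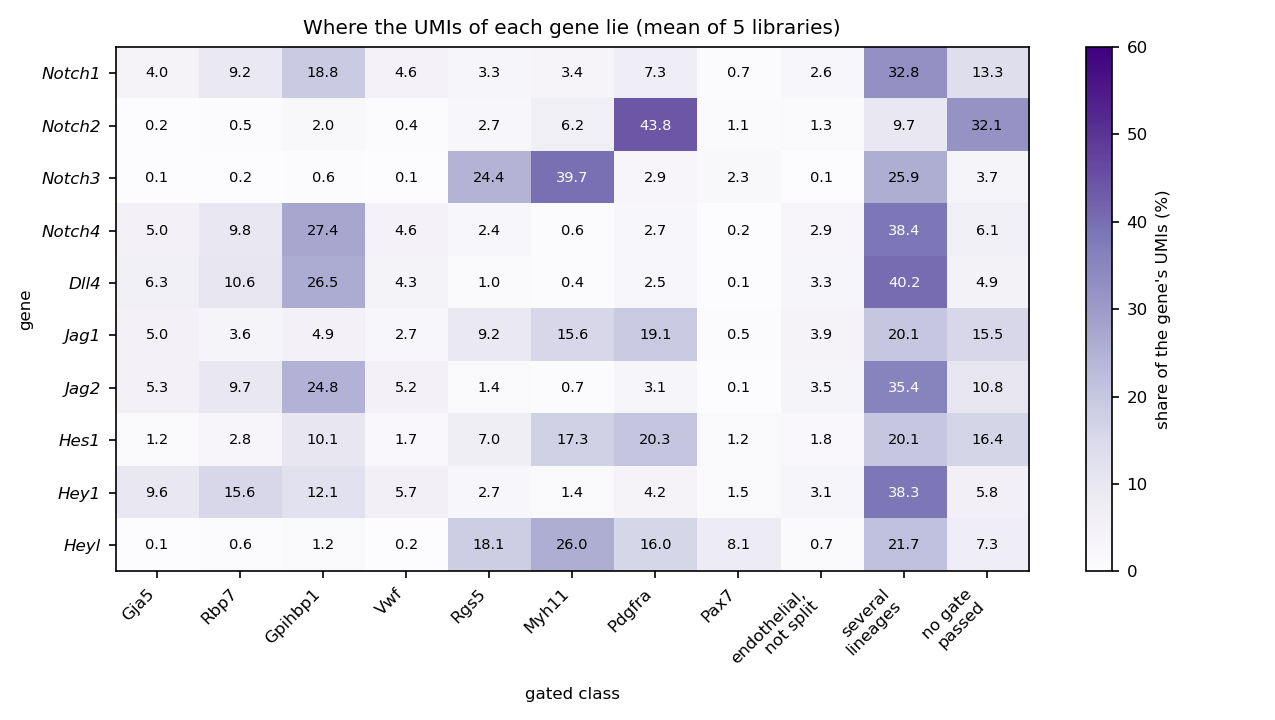
Share of all UMIs of each gene, in percent of the retained cells of a library and averaged over 5 libraries, that lay in each class (columns) for each gene (one per line). The darkest squares of the 8 classes are Notch2 in Pdgfra cells (43.8%) and Notch3 in Myh11 cells (39.7%), and the column of cells that passed several gates holds 9.7% to 40.2% of each gene, with Dll4 the highest.

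Levels in CPM say nothing of how many cells of a class there are, so the shares of UMIs were also counted. Endothelial cells that passed the Cdh5 gate alone held 50.9% of the Dll4 UMIs, 49.5% of Notch4, 48.5% of Jag2, 46.2% of Hey1 and 39.2% of Notch1. For the same 5 genes, a further 32.8% to 40.2% lay in cells that passed several gates, and the mural cells held 1.4% to 6.6%. Mural cells held 64.1% of the Notch3 and 44.1% of the Heyl UMIs. Jag1 and Hes1 were spread, with at most 20.3% of either in any 1 class. The Pax7 cells, which were few, held 8.05% of the Heyl UMIs and at most 2.3% of those of any other gene of the set.

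The share of cells with at least 1 UMI was read at a common depth, by drawing 3000 UMIs from each cell and leaving out 4099 of the 28179 cells for being shallower. This left out 2229 of 6957 Gpihbp1 and 1162 of 2973 Rgs5 cells, but 74 of 1660 Myh11 and 8 of 391 Gja5 cells. The thinned shares of Gpihbp1 and Rgs5 cells thus describe the deeper cells of those classes. Notch3 was then seen in 58.6% to 85.8% of Myh11 cells per library (86.3% to 97.7% before thinning) and in 61.8% to 78.4% of Rgs5 cells (61.1% to 77.9% before). The background in Gpihbp1 cells, which should lack it, was 1.36% to 2.15% (2.04% to 2.63% before). Median depth per library was 9914 to 13963 UMIs in Myh11 cells, 3123 to 3711 in Rgs5 cells and 3445 to 3936 in Gpihbp1 cells. Dll4 was seen in 30.2% to 51.9% of Gja5 and 17.3% to 32.7% of Gpihbp1 cells at that depth (52.3% to 74.3% and 21.6% to 39.3% before), against a background of 0.690% to 0.927% in Pdgfra cells (1.81% to 2.43% before, median depth 7792 to 9135). Heyl was seen in 29.2% to 40.8% of Pax7 cells (53.96% to 63.3% before) and in 0.789% to 1.60% of Gpihbp1 cells (1.21% to 1.83% before). Hey1 was seen in 37.1% to 62.96% of Gja5, 26.5% to 42.7% of Rbp7, 13% to 21.7% of Vwf and 7.37% to 14.8% of Gpihbp1 cells, against 0.505% to 1.47% of Pdgfra cells (64.5% to 83.8%, 38.1% to 57.9%, 16.5% to 29.1%, 9.40% to 18.01% and 1.57% to 4.06% before).

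Differences between classes were tested with edgeR's quasi-likelihood test on UMIs summed per class and library, with the library as a block and Benjamini-Hochberg adjustment over all genes tested, at a threshold of 0.05. Between endothelial and mural cells all 10 genes differed, where 64.5% of the 13971 genes tested did. Higher in endothelial cells were Dll4 (log2 fold change 4.41, SE 0.18, adjusted p = 5.01e-07), Jag2 (3.77), Notch4 (3.21), Hey1 (2.75) and Notch1 (1.74). Lower in endothelial cells were Notch3 (log2 fold change -6.70, SE 0.23, adjusted p = 2.73e-07), Heyl (-4.79), Notch2 (-1.77), Hes1 (-1.24) and Jag1 (-1.15). Each of the 10 differences had the same sign in 5 of 5 libraries, and the largest adjusted p of the 10 was 0.000891, for Jag1. Receptors, ligands and targets thus stood on both sides. Of 44 other genes of the pathway, 40 were tested here, 16 were higher and 8 lower in endothelial cells, with a median log2 fold change of 0.11. Mfng, a glycosyltransferase that changes which ligands a receptor answers to, was higher (log2 4.22, adjusted p = 4.39e-06). The ligand Dll1 and the arterial target Efnb2 were also higher (log2 3.96 and 2.81, adjusted p = 1.78e-05 and 1.18e-05). The target Hey2, the Deltex family gene Dtx3 and the ligand-like Dlk1 were lower (log2 -4.10, -3.08 and -2.65, adjusted p = 1.28e-05, 3.51e-07 and 0.000763).

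**Figure D3:**
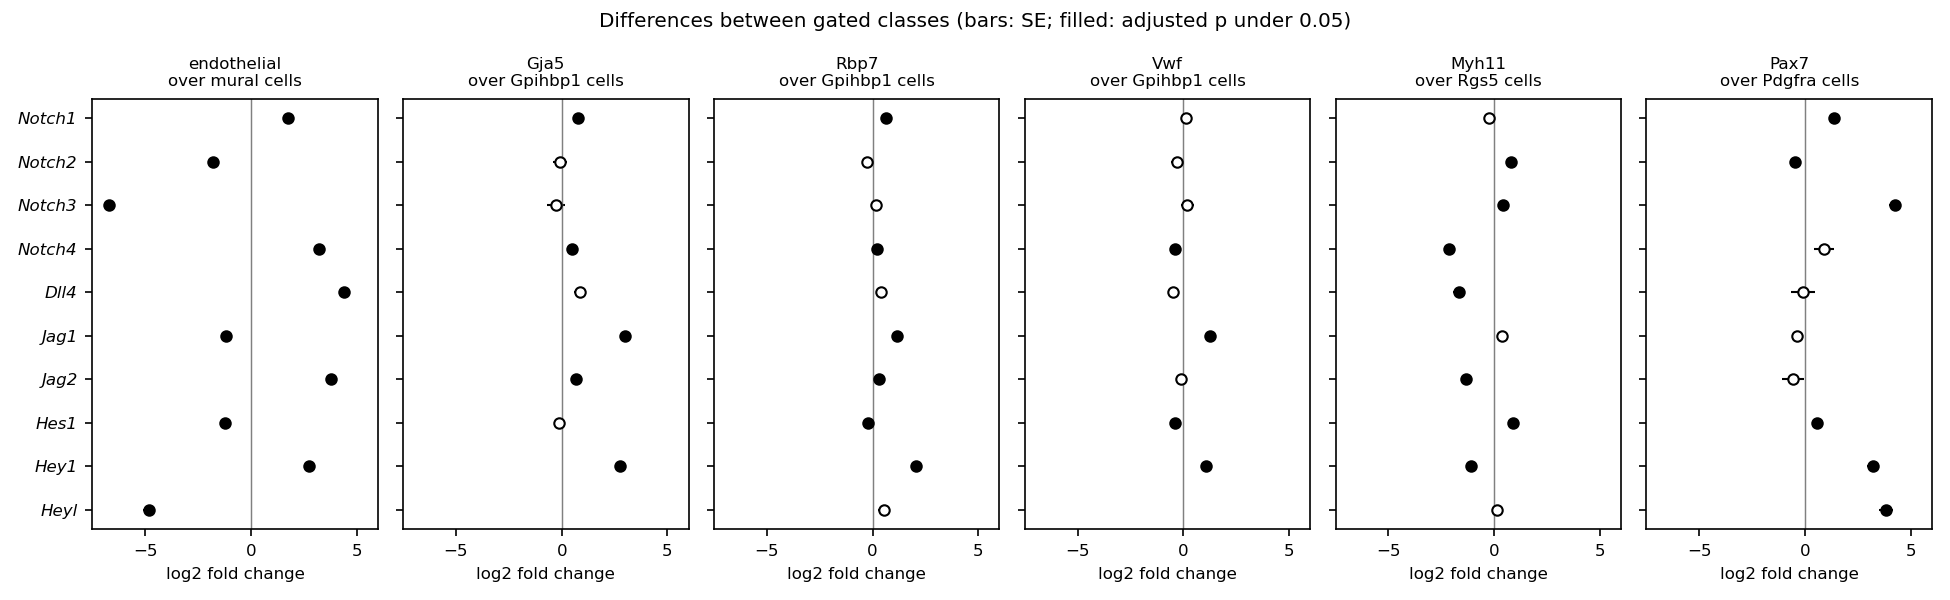
Log2 fold change of the 10 genes in 6 comparisons of classes, first-named class over second (horizontal axis), with SE as bars that are often shorter than the point. Filled points passed an adjusted p of 0.05, and a missing point is a gene that the low-count filter removed. Jag1 and Hey1 are the points farthest to the right in the 3 comparisons within endothelium.

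Within endothelium, the Gja5 cells stood apart from the Gpihbp1 capillary cells most in Jag1 and Hey1. Jag1 had 148 and 346 CPM in Gja5 cells of the frail libraries and 152, 167 and 231 CPM in those of the control libraries. In Gpihbp1 cells it had 21.3 and 31.6 CPM in the frail libraries and 24.1, 28.1 and 32.3 CPM in the control libraries (log2 fold change 2.98, SE 0.13, adjusted p = 2.18e-11). All 5 Gja5 values lay above all 5 Gpihbp1 values. Hey1 had 202 and 380.3 CPM in Gja5 cells of the frail libraries and 260.0, 300.3 and 189.8 CPM in those of the control libraries. In Gpihbp1 cells it had 57.2 and 48.3 CPM in the frail libraries and 33.05, 31.3 and 33.8 CPM in the control libraries (log2 fold change 2.75, SE 0.19, adjusted p = 5.73e-06), again with no overlap. Of 9 genes tested, 5 were called, all higher in Gja5 cells, where 29.7% of the 10940 genes tested were called and 16.2% were called higher. The other called genes were Notch1 (0.76), Jag2 (0.66) and Notch4 (0.47), with adjusted p = 1.50e-05, 0.000456 and 0.00789. Notch1 and Jag2 were higher in 5 of 5 libraries, and Notch4 in 4 of 5 by CPM, with control 3 as the exception. The Notch4 call was lost without the library block (adjusted p = 0.0848), without the frail 2 library (adjusted p = 0.0697) or the control 1 library (0.0654). Dll4 was higher in 4 of 5 libraries and missed the threshold (log2 0.86, SE 0.26, adjusted p = 0.0526). Control 3 was the library without the difference, and Dll4 passed when it was left out (log2 1.10, adjusted p = 1.26e-07). Dll4 also passed with DESeq2 (adjusted p = 0.00223), without the library block (0.0207), at a 5% mitochondrial limit (0.016) and with looser gates (0.0079). It passed too with no low-count filter (2.17e-06), with doublets removed (0.0418) and with stricter gates (1.58e-06), which left out control 2 and control 3. Of 13 alternatives, 8 gave a call for Dll4 and 5 did not. Hes1 was at -0.12 (adjusted p = 0.516). Of 38 other pathway genes tested, 8 were higher and 3 lower in Gja5 cells (median log2 0.02). Among the higher were Hey2, the target that marks arteries from early development on (log2 3.92), Dll1 (2.32), the cleavage subunit Psen2 (1.63), the inhibitor Numb (0.96) and Efnb2 (0.87), and the ubiquitin ligase gene Neurl1b was lower (-2.09), with adjusted p of at most 8.40e-05 among these 6.

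The Rbp7 cells, which held capillary and arterial genes, lay between the Gja5 and Gpihbp1 cells in their means of Notch1, Notch4, Dll4, Jag1, Jag2 and Hey1. Against Gpihbp1 cells, 6 of 10 genes were called, where 11.5% of the 11314 genes tested were. Hey1 had 206 and 241 CPM in Rbp7 cells of the frail libraries and 134, 129.7 and 114 CPM in those of the control libraries. In Gpihbp1 cells it had 57.2 and 48.3 CPM in the frail libraries and 33.05, 31.3 and 33.8 CPM in the control libraries (log2 fold change 2.05, SE 0.08, adjusted p = 2.03e-12). All Rbp7 values lay above all Gpihbp1 values. Jag1 (log2 fold change 1.18, SE 0.20, adjusted p = 0.0131) and Notch1 (log2 fold change 0.64, SE 0.06, adjusted p = 2.40e-07) were also higher in 5 of 5 libraries. The remaining 3 calls were small in size, with log2 fold changes of Jag2 at 0.31 (higher in 4 of 5 libraries), Notch4 at 0.20 and Hes1 at -0.19. Calls depended on single libraries here. Without control 2 the calls for Jag1, Jag2, Notch4 and Hes1 were lost (adjusted p = 0.0624, 0.072, 0.122 and 0.108). Without frail 2 the calls for Jag2 and Notch4 were lost (0.0791 and 0.103), and without frail 1 that for Hes1 (0.0563). Those for Notch4 and Hes1 were also lost without control 1 (0.0818 and 0.065) or control 3 (0.107 and 0.117). The calls for Notch4 and Hes1 were lost too with DESeq2 (adjusted p = 0.315 and 0.102), at a 5% mitochondrial limit, with looser gates and with clusters, and these calls and that for Jag2 without the library block (adjusted p = 0.729 for Jag2). Looser gates also lost the Jag2 call (0.127), stricter gates the Hes1 call (0.0929) and no low-count filter the Notch4 call (0.137). Dll4 (log2 0.38, adjusted p = 0.138) passed only when the control 3 library was left out (0.000225), of the 5 libraries left out in turn. With all libraries it passed with DESeq2 (0.0384), no low-count filter (1.39e-05), looser gates (0.0268) and stricter gates (0.00361), and in no other alternative. Of 36 other pathway genes tested, 4 were higher and 2 lower (median log2 0.04): Efnb2 (log2 0.84), Psen2 (0.57), Numb (0.41) and the feedback inhibitor Nrarp (0.31) were higher, and Lfng (-0.68) and Neurl1b (-0.44) lower, with adjusted p of at most 0.0189.

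In Vwf cells against Gpihbp1 cells, 4 of 9 genes were called, where 22.2% of the 11009 genes tested were. Jag1 had 52.6 and 103 CPM in Vwf cells of the frail libraries and 37.7, 49.97 and 79.5 CPM in those of the control libraries. In Gpihbp1 cells it had 21.3 and 31.6 CPM in the frail libraries and 24.1, 28.1 and 32.3 CPM in the control libraries (log2 fold change 1.25, SE 0.15, adjusted p = 4.95e-05). The Vwf values lay above the Gpihbp1 values without overlap. Hes1 (log2 fold change -0.38, SE 0.09, adjusted p = 0.00425) and Notch4 (log2 fold change -0.39, SE 0.12, adjusted p = 0.0441) were lower in 5 of 5 libraries, and the Notch4 call was lost without frail 1, control 1 or control 3 (adjusted p = 0.11, 0.0902 and 0.163). It was also lost at a 5% mitochondrial limit, with DESeq2, with looser gates and without the library block (adjusted p = 0.142, 0.0656, 0.245 and 0.357), as was the Hes1 call without that block (0.195). Hey1 was higher with these gates (log2 fold change 1.05, SE 0.22, adjusted p = 0.0181), but the call was lost without control 1 or control 2 (adjusted p = 0.0604 and 0.0846). With stricter gates the difference was smaller (log2 0.40, adjusted p = 0.693), and the direction turned when clusters took the place of gates. In the cluster that the gated Vwf cells named, Hey1 was at 11.3 and 1.28 CPM in the frail libraries and 4.05, 4.64 and 3.19 CPM in the control libraries. In the Gpihbp1 clusters it was at 66.5 and 39.7 CPM in the frail and 43.9, 37.8 and 34.95 CPM in the control libraries (log2 -2.93, adjusted p = 7.00e-12). That cluster had 406 to 1207 CPM of Selp and 76.5 to 154 CPM of Sox17, while the gated Vwf cells had 169.9 to 552 CPM and 175 to 358 CPM. Dll4 was also far lower in that cluster (log2 -3.31, adjusted p = 1.58e-06), as was Jag2 (-1.10, adjusted p = 5.00e-05), neither of which was called with gates. Notch1 turned as well: it was not called with gates (log2 0.13, adjusted p = 0.216), was called higher with looser gates (log2 0.23, adjusted p = 0.0432) and at a 5% mitochondrial limit (0.24, adjusted p = 0.0465), and was called lower with clusters (-0.42, adjusted p = 0.000461). Of 36 other pathway genes, 8 were higher and 4 lower in gated Vwf cells (median log2 -0.04). The higher ones included Dll1 (log2 1.87), Psen2 (1.85), Lfng (1.62), Fbxw7 (0.55), which turns over the cut receptor, and the coactivators Kat2a (0.60) and Maml2 (0.49), with adjusted p of at most 0.0431.

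Within the vessel wall, Myh11 smooth muscle cells had more Hes1 than Rgs5 cells, with 917 and 814 CPM in Myh11 cells of the frail libraries and 1283, 1436 and 798 CPM in those of the control libraries. In Rgs5 cells it had 684 and 488 CPM in the frail libraries and 796, 614 and 681 CPM in the control libraries (log2 fold change 0.91, SE 0.13, adjusted p = 0.000114). Every Myh11 value lay above every Rgs5 value, by a narrow margin between the lowest of the first and the highest of the second. Of 10 genes 7 were called, where 55.1% of the 11436 genes tested were. Notch2 (log2 fold change 0.77, SE 0.13, adjusted p = 0.000429) was higher in Myh11 cells in 5 of 5 libraries. Notch3 was called higher (log2 fold change 0.40, SE 0.12, adjusted p = 0.0178), but by CPM it was higher in only 2 of 5 libraries, control 1 and control 2. The fit scales the libraries by TMM, which moved Myh11 against Rgs5 cells by 0.25 on the log2 scale (0.14 to 0.36 over the 5 libraries), and after this scaling Notch3 was higher in 5 of 5. The Notch3 call was lost without control 1 (adjusted p = 0.0535), at a 5% mitochondrial limit (log2 0.23, adjusted p = 0.299), without the library block (adjusted p = 0.219) and with clusters in place of gates (log2 0.15, adjusted p = 0.381). Jag1 (log2 0.37, adjusted p = 0.0836), Heyl (0.12, 0.513) and Notch1 (-0.25, 0.204) were not called with these gates. Jag1 passed without control 3 (adjusted p = 0.0275), with stricter gates (0.0162) and with no low-count filter (0.000632), and Notch1 with stricter gates (log2 -0.53, adjusted p = 0.00363). Heyl turned and was called lower with clusters (log2 -0.51, adjusted p = 0.00567). The part of the smooth muscle transcripts of the Rgs5 cells, given above, in these values was not tested.

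Lower in Myh11 than in Rgs5 cells were Notch4 (log2 fold change -2.16, SE 0.23, adjusted p = 1.13e-05), Dll4 (-1.65), Jag2 (-1.35) and Hey1 (-1.10), each in 5 of 5 libraries. These are 4 of the 5 genes that were higher in endothelial than in mural cells, and the endothelial markers of the Rgs5 cells given above were also lower in Myh11 cells, whose part in these values was not tested. With clusters in place of gates, where Pecam1 was at 28.2 to 41.2 CPM in the Rgs5 and 29.5 to 64.1 CPM in the Myh11 clusters, Dll4 and Jag2 turned (log2 0.49 and 0.84, adjusted p = 0.182 and 0.0112). Notch4 and Hey1 stayed lower in the Myh11 clusters. Notch4 was then at 4.84 and 8.26 CPM in the Myh11 clusters of the frail libraries and 5.53, 8.78 and 5.99 CPM in those of the control libraries, against 15.2 and 53.7 CPM in the Rgs5 clusters of the frail libraries and 15.4, 32.6 and 20.9 CPM in those of the control libraries. Of 37 other pathway genes, 9 were higher and 13 lower in Myh11 cells (median log2 -0.16). Hey2 (log2 3.02) and Nrarp (0.93), both Notch targets, were higher, and Dlk1 (-2.90), Dtx4 (-2.39), Lfng (-1.96) and Dtx3 (-1.30) lower, with adjusted p of at most 0.000294.

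Pax7 satellite cells differed from Pdgfra cells in 6 of 10 genes, where 42.8% of the 14015 genes tested differed. Notch3 had 151 and 44.04 CPM in Pax7 cells of the frail libraries and 156, 106 and 191 CPM in those of the control libraries. In Pdgfra cells it had 6.34 and 6.22 CPM in the frail libraries and 6.17, 6.65 and 8.51 CPM in the control libraries (log2 fold change 4.23, SE 0.26, adjusted p = 7.37e-07). The lowest Pax7 value, in the frail 2 library, was still above every Pdgfra value. Heyl had 144 and 169.6 CPM in Pax7 cells of the frail libraries and 173, 169.7 and 177 CPM in those of the control libraries. In Pdgfra cells it had 7.29 and 27.2 CPM in the frail libraries and 15.8, 7.07 and 10.5 CPM in the control libraries (log2 fold change 3.83, SE 0.32, adjusted p = 0.00023), and its Pax7 values spanned only 144 to 177 CPM. Hey1 (log2 fold change 3.19, SE 0.25, adjusted p = 2.22e-15) and Notch1 (log2 fold change 1.34, SE 0.16, adjusted p = 1.27e-09) were higher in Pax7 cells in 5 of 5 libraries. Hes1 was higher in 4 of 5 (log2 fold change 0.58, SE 0.18, adjusted p = 0.0165), a call that was lost without control 2 (adjusted p = 0.0894). Notch2 was lower in 5 of 5 (log2 fold change -0.46, SE 0.15, adjusted p = 0.0105), a call that was lost without frail 2 (0.0591). The Hes1 call was also lost at a 5% mitochondrial limit, without the library block and with clusters (0.0533, 0.0525 and 0.0838). No ligand of the set was called with these gates and the low-count filter. With clusters Dll4 and Jag2 were called higher (log2 0.97 and 0.87, adjusted p = 0.0176 and 0.0194), against log2 -0.10 and -0.59 with gates, and so was Notch4 (log2 1.78 with clusters and 0.90 with gates). Jag1 (log2 -0.40, adjusted p = 0.0919) passed without frail 1 or control 2 only (adjusted p = 0.0443 and 0.0362) among the libraries left out. It was also called lower with looser gates, with no low-count filter and with clusters (adjusted p = 0.0436, 0.0201 and 0.0221). Of 40 other pathway genes, 8 were higher and 11 lower in Pax7 cells (median log2 -0.17). The ubiquitin ligase gene Neurl1a (log2 3.20), the ligand Dll1 (2.89), Hey2 (1.70) and Dtx4 (1.64) were higher, and the cleavage protease Adam17 (-1.47) and the coactivator Maml2 (-1.46) lower, with adjusted p of at most 0.0037.

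The frail libraries were compared with the control libraries with the same test and no block, over all retained cells, endothelial and mural cells, and the 8 classes. The low-count filter left 7 of the 10 genes in Gja5 and in Pax7 cells, 8 in Vwf cells, 9 in Myh11 cells and all 10 in the other sets. None of the 10 genes passed the adjusted threshold in any of these 11 comparisons, where 0% of all genes tested passed over all retained, mural, Gpihbp1, Vwf and Rgs5 cells, 0.054% in endothelial, 0.0194% in Rbp7, 0.0139% in Gja5, 0.0172% in Myh11, 0.00626% in Pdgfra and 0.023% in Pax7 cells. At an unadjusted p under 0.05, edgeR gave 2 of the 10 genes in endothelial, Gpihbp1, Rbp7 and Pdgfra cells, where 4.35%, 4.41%, 3.93% and 5.68% of all genes were under it. It gave 1 gene each over all retained, mural, Rgs5, Myh11, Vwf and Pax7 cells (5.6%, 4.55%, 5.7%, 4.49%, 2.9% and 4.13% of all genes) and 0 in Gja5 cells (2.27%). DESeq2 called 1 gene, Hey1, in endothelial cells and none elsewhere. The median mitochondrial share per retained cell was 4.14% and 4.05% in the frail libraries and 3.18%, 3.08% and 3.39% in the control libraries, and with a limit of 5% in place of 10% none of the 10 was called either. In sums over all retained cells, fewer cells of a type and less RNA per cell cannot be told apart. Over all cells, Hey1 had 37.4 and 46.6 CPM in the frail libraries, against 26.9, 22.98 and 14.7 CPM in the control libraries (log2 fold change 0.93, SE 0.28, adjusted p = 0.675), and it was the only one of the 10 whose groups did not overlap. Of all genes tested in that comparison, 19.7% had groups that did not overlap, and 9.81% were higher in that way. The Gja5 cells, which had the highest level of Hey1, made up 1.54% and 1.06% of the retained cells of the frail libraries, against 0.705%, 0.315% and 0.364% of those of the control libraries.

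Within classes, Hey1 lay higher in both frail libraries than in all 3 control libraries in 6 of the 8 classes, and in the others the groups overlapped. All 8 classes came from the same mice and libraries, so the 6 are not independent of each other. How many of all genes were higher in as many classes was not counted. In Rbp7 cells it had 206 and 241 CPM in the frail libraries, against 134, 129.7 and 114 CPM in the control libraries (log2 fold change 0.81, SE 0.20, adjusted p = 0.377). In Gpihbp1 cells it had 57.2 and 48.3 CPM in the frail libraries, against 33.05, 31.3 and 33.8 CPM in the control libraries (log2 fold change 0.69, SE 0.18, adjusted p = 0.429). The frail values stood clear of the control values in both of these classes, where 8.77% and 7.5% of genes were higher in that way. In Vwf cells it had 70.9 and 169 CPM in the frail libraries, against 67.8, 67.1 and 49.3 CPM in the control libraries (log2 fold change 0.96, SE 0.32, adjusted p = 0.999), so that the gap rested on the frail 2 library. Without that library the log2 fold change was 0.32. Outside endothelium the levels were low. In Pax7 cells it had 40.3 and 33.7 CPM in the frail libraries, against 30.7, 17.3 and 29.95 CPM in the control libraries (log2 fold change 0.44, SE 0.33, adjusted p = 1.0). In Myh11 cells the values were 8.73 and 10.6 CPM in the frail libraries, against 6.07, 5.29 and 5.15 CPM in the control libraries (log2 fold change 0.88, SE 0.30, adjusted p = 0.993). In Pdgfra cells they were 5.40 and 4.46 CPM in the frail libraries, against 2.78, 1.89 and 3.05 CPM in the control libraries (log2 fold change 0.92, SE 0.30, adjusted p = 0.72). In Vwf, Pax7, Myh11 and Pdgfra cells, in that order, 6.11%, 10.5%, 5.21% and 9.45% of genes were higher without overlap. The groups overlapped in Gja5 cells, with 202 and 380.3 CPM in the frail libraries, against 260.0, 300.3 and 189.8 CPM in the control libraries, and in Rgs5 cells, with 17.8 and 26.7 CPM in the frail libraries, against 14.9, 11.1 and 23.5 CPM in the control libraries.

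Over all endothelial cells Hey1 had 103 and 117 CPM in the frail libraries, against 73.7, 60.4 and 58.1 CPM in the control libraries (log2 fold change 0.79, SE 0.18, adjusted p = 0.29). The adjusted p was 0.0376 with DESeq2 and 0.0178 with no filter on low counts, and it ran from 0.0178 to 0.909 over 14 alternatives, all with a positive fold change. In endothelial cells 15.5% of genes had groups that did not overlap, made up of 6.74% that were higher and 8.77% that were lower in the frail libraries. The make-up of the endothelial cells and their markers moved with it in part. Gja5 cells were 6.77% and 3.21% of the endothelial cells in the frail libraries and 2.91%, 1.77% and 3.15% in the control libraries. A list of 5 arterial genes (Sox17, Gja4, Bmx, Fbln5 and Stmn2) summed to 1177 and 1347 CPM in Rbp7 cells of the frail libraries and 777, 902 and 879 CPM in those of the control libraries. In Vwf cells it summed to 845 and 1098 CPM in the frail and 537, 499.7 and 706 CPM in the control libraries. In Gpihbp1 cells the same list overlapped between the groups, at 321 and 447 CPM in the frail and 343, 307 and 256 CPM in the control libraries, with none of its 5 genes at 0 in these 3 classes. The list was also higher in Myh11 cells (204 and 213 CPM in the frail and 144, 120.0 and 147 CPM in the control libraries) and in Pax7 cells (23.8 and 24.4 CPM in the frail and 13.9, 20.1 and 17.2 CPM in the control libraries), where up to 2 of its 5 genes were at 0 in a library. The part of these markers in the values of Hey1, and of Jag1 in Rbp7 cells, was not tested. Transcripts of muscle fibres were lower in the frail libraries, with 5 fibre genes (Acta1, Ckm, Myh4, Tnnt3 and Mb) summing to 61.6 to 219 CPM in Gpihbp1 cells of the frail libraries and 1279.8 to 3240.4 CPM in those of the control libraries, none at 0, and their part was not tested either. The frail effect on Hey1 in endothelial cells was not shown to differ from that in mural cells (difference of log2 fold changes 0.27, SE 0.33, adjusted p = 0.999). This interaction was tested with limma on the difference of log2 CPM between endothelial and mural sums within each library. By that test none of the 10 genes passed (0% of all genes tested did), and none of the 10 had an unadjusted p under 0.05.

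**Figure D4:**
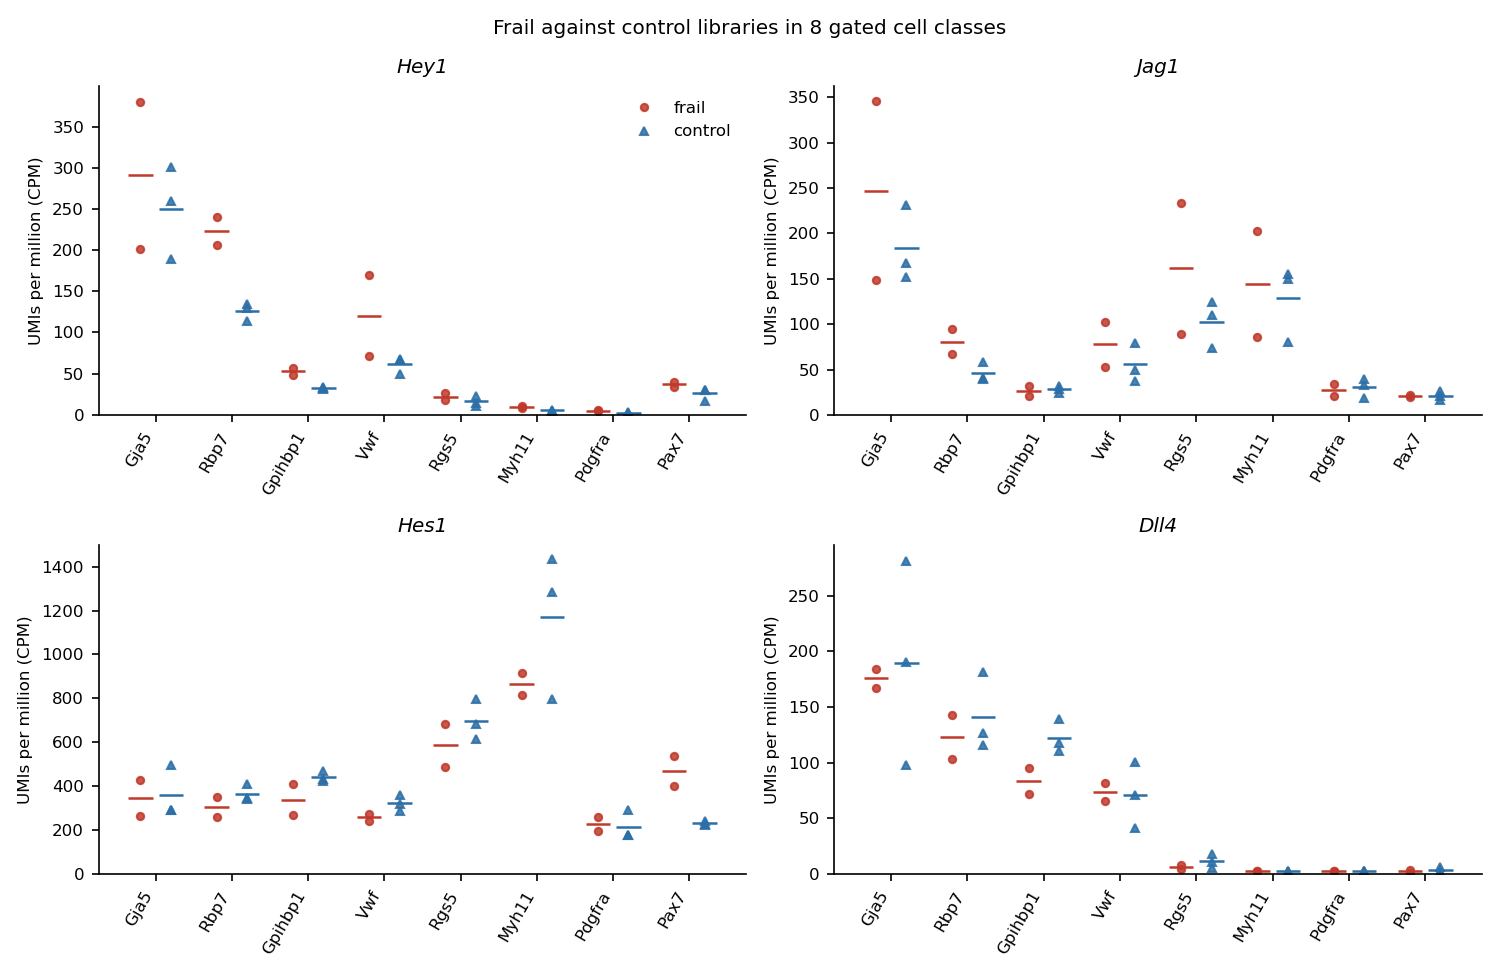
CPM of Hey1, Jag1, Hes1 and Dll4 in 8 classes, with each library as a point (circles frail, triangles control) and the group means as bars, on a linear axis that starts at 0. Hey1 is higher in both frail libraries in the Rbp7, Gpihbp1 and Vwf classes, and Hes1 is higher in the frail libraries in Pax7 cells and lower in Gpihbp1 and Vwf cells.

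The ligands did not share a direction. Over all endothelial cells Jag1 had 64.3 and 81.2 CPM in the frail libraries, against 40.5, 44.3 and 61.6 CPM in the control libraries (log2 fold change 0.59, SE 0.19, adjusted p = 0.792). In Rbp7 cells Jag1 had 66.6 and 95.04 CPM in the frail libraries, against 39.8, 58.7 and 40.1 CPM in the control libraries (log2 fold change 0.79, SE 0.25, adjusted p = 0.76). In both sets the frail values lay above the control values, narrowly in the first. In Gpihbp1 cells Dll4 had 95.5 and 71.9 CPM in the frail libraries, against 111, 118 and 139 CPM in the control libraries (log2 fold change -0.54, SE 0.21, adjusted p = 1.0). The frail values lay below the control values. Jag2 in the same cells had 120.0 and 88.6 CPM in the frail libraries, against 133, 133 and 144 CPM in the control libraries (log2 fold change -0.38, SE 0.21, adjusted p = 1.0). Both differences rested largely on frail 2, without which they were -0.29 for Dll4 and -0.12 for Jag2 on the log2 scale. In Rgs5 cells Jag2 had 10.2 and 8.14 CPM in the frail libraries, against 10.2, 23.3 and 28.97 CPM in the control libraries (log2 fold change -1.19, SE 0.45, adjusted p = 0.847), so that frail 1 and control 1 were all but level. Genes lower in the frail libraries with no overlap made up 9.1% of all genes tested in Gpihbp1 cells and 10.3% in Rgs5 cells. The fibre genes given above were lower in the frail libraries in Gpihbp1 cells too, and in Rgs5 cells (114 to 195 CPM in the frail and 819 to 8064 CPM in the control libraries, none at 0), and their part in the ligand values was not tested. In Gja5 cells the groups overlapped for all 3 ligands. There Jag1 had 148 and 346 CPM in the frail libraries, against 152, 167 and 231 CPM in the control libraries. Dll4 had 167 and 184 CPM in the frail libraries, against 189.9, 281 and 98.2 CPM in the control libraries. Jag2 had 168 and 197 CPM in the frail libraries, against 197, 182 and 161 CPM in the control libraries.

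Among the receptors, Notch1 overlapped between the groups in all 8 classes, with log2 fold changes of -0.33 to 0.62. Notch2 in Rgs5 cells had 21.4 and 22.6 CPM in the frail libraries, against 34.1, 26.9 and 30.9 CPM in the control libraries (log2 fold change -0.49, SE 0.23, adjusted p = 0.847). In Pax7 cells Notch2 had 32.1 and 31.9 CPM in the frail libraries, against 39.03, 43.1 and 37.6 CPM in the control libraries (log2 fold change -0.31, SE 0.31, adjusted p = 1.0). Both frail values were below every control value in these classes, and in Vwf cells too, at a low level. There Notch2 had 3.65 and 4.19 CPM in the frail libraries, against 5.86, 9.99 and 12.1 CPM in the control libraries. Over all mural cells it had 27.7 and 30.3 CPM in the frail libraries, against 41.9, 41.8 and 31.2 CPM in the control libraries. In mural cells 17.8% of genes had groups that did not overlap and 12.1% were lower, and in Vwf and Pax7 cells 9.25% and 8.29% were lower. Notch3 spread widely within each group. In Myh11 cells it had 303 and 764 CPM in the frail libraries, against 811, 741 and 419.9 CPM in the control libraries. In Pax7 cells it had 151 and 44.04 CPM in the frail libraries, against 156, 106 and 191 CPM in the control libraries (log2 fold change -0.70, SE 0.50, adjusted p = 1.0). The frail 2 library was the lowest of the 5 in Pax7 cells, and without it the log2 fold change was -0.096, while without frail 1 the Notch3 difference there was called (log2 -1.79, adjusted p = 0.00288). The groups overlapped for Notch4 in 7 of 8 classes, and in Pax7 cells, where they did not, it was at most 6.20 CPM.

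Hes1 in Pax7 cells had the smallest adjusted p of any of the 10 genes in the frail comparisons. It had 536 and 402 CPM in the frail libraries, against 226, 224 and 242 CPM in the control libraries (log2 fold change 0.99, SE 0.21, adjusted p = 0.136). The frail values were higher and apart from 3 control values that lay close together. The difference passed the threshold without frail 2 (log2 1.14, adjusted p = 0.0255) and with no filter on low counts (0.00371), and its adjusted p ran from 0.00371 to 1.0 over 14 alternatives. The Pax7 class held 146 and 139 cells in the frail libraries and 50, 49 and 226 in the control libraries. The list of 5 fibre genes summed to 22.8 and 35.6 CPM in Pax7 cells of the frail libraries and 234, 837 and 1437 CPM in those of the control libraries, with 1 of the 5 at 0 in each frail library, and none at 0 in the control libraries. A list of 4 Schwann cell genes summed to 81.7 and 25.3 CPM in the frail and 8.36, 23.01 and 19.1 CPM in the control libraries, with at most 1 gene at 0 in a library. The 5 pericyte genes were at 49.6 and 50.6 CPM in the frail and 58.5, 54.6 and 61.8 CPM in the control libraries. The part of these transcripts in the Hes1 values was not tested. The satellite cell markers, 6 genes that include Myf5, Chodl and Calcr, overlapped at 3747 and 4105 CPM in the frail and 4115, 3647 and 3957 CPM in the control libraries. In Gpihbp1 and Vwf cells the frail values of Hes1 lay on the other side, while in Gja5 and Rbp7 cells the groups overlapped. Gpihbp1 cells had 409 and 267 CPM in the frail libraries, against 469, 433 and 422 CPM in the control libraries (log2 fold change -0.37, SE 0.26, adjusted p = 1.0). Vwf cells had 273 and 242 CPM in the frail libraries, against 289, 321 and 359 CPM in the control libraries (log2 fold change -0.29, SE 0.23, adjusted p = 0.999). Without frail 2 the log2 fold change of Hes1 was -0.047 in Gpihbp1 and -0.12 in Vwf cells, so the lower values in these classes rested largely on that library. The other targets in Pax7 cells were Hey1, given above, and Heyl, which had 144 and 169.6 CPM in the frail libraries, against 173, 169.7 and 177 CPM in the control libraries (log2 fold change -0.16, SE 0.22, adjusted p = 1.0).

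Counted over the 80 pairs of a gene and a class, the groups did not overlap in 19, of which 10 were higher and 9 lower in the frail libraries, and Hey1 made up 6 of the 10. The pairs share the same libraries, so they are not independent. Of the 19, 2 were in genes with too few UMIs to be tested there (Notch3 in Gja5 cells and Notch4 in Pax7 cells). By class, none of the genes tested was apart in Gja5 cells, 1 in Myh11 and in Pdgfra cells, 2 in Rbp7 and in Rgs5 cells, 3 in Vwf cells and 4 in Gpihbp1 and in Pax7 cells. The share of all tested genes that were apart in either direction was 13.7%, 19.3%, 18.9%, 16.4%, 21%, 15.4%, 16.6% and 18.8% in the classes in that order. None of the 44 other pathway genes passed edgeR's test in any of the 11 comparisons, with 29 to 43 of them tested and medians of -0.05 to 0.10 on the log2 scale.

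The genes whose levels were most like those of the set were found among 9065 genes with a mean of at least 10 CPM, by Pearson's r of log2(CPM + 1) over 40 points, 8 classes in each of 5 libraries. These points share libraries and classes, so r is a description here. Within the set, the pairs most alike were Notch4 and Jag2 (r = 0.946), Dll4 and Jag2 (0.944) and Notch4 and Dll4 (0.942), the mural pair Notch3 and Heyl was at 0.908, and the least alike pair was Notch2 and Dll4 (-0.899). Notch1 was most like Rgs3 (r = 0.955), Tspan7 and Slc12a7. Notch4 was most like Cd93 (r = 0.974), Gata2 and Afap1l1, where Cd93 is an endothelial surface protein and Gata2 a transcription factor of endothelium. Dll4 was most like Sox17 (r = 0.981), S1pr1 and Pecam1, which are Sox17 of arterial endothelium, a sphingosine phosphate receptor and the adhesion molecule of endothelial junctions. Jag2 was most like Erg (r = 0.978), Pkn3 and Rnf144b, the first being the ETS factor of endothelium. Notch3 was most like Itga7 (r = 0.980), Rgs4 and S1pr3, the laminin-binding integrin subunit, a regulator of G protein signalling and another sphingosine phosphate receptor. Jag1 was most like Gja4 (r = 0.920), Afap1l2 and Rnf152, the first a connexin of arteries and mural cells. Heyl was most like Kcne4 (r = 0.925), Ndrg2 and Hoxc6, and Hey1 most like Fam181b (r = 0.930), Cd2ap and Slc6a6. Notch2 was most like Akt2 (r = 0.940), Irs2 and Lhfp, and Hes1 most like Atp5md (r = 0.895), AW011738 and Uqcr10, of which Atp5md and Uqcr10 encode parts of the mitochondrial machinery.

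Some values carry a limit from neighbouring genes. For genes on the opposite strand it applies only if strand was not used in counting, which the sources used here do not state. For genes on the same strand it applies either way. In GENCODE vM21, Gm14207 lies on the strand opposite Dll4 and had 249 to 607 UMIs per library, 0610009E02Rik and Gm13568 lie opposite Notch1, and Gm17276 lies opposite Notch3. Gm42819 and Gm42820 lie within Notch2 on its own strand, with 224 to 648 and 163 to 390 UMIs, so that the Notch2 values in particular are uncertain. On GRCm38, Notch1 (ENSMUSG00000026923) spans chr2:26457903-26516663, Notch2 (ENSMUSG00000027878) spans chr3:98013527-98150361, Notch3 (ENSMUSG00000038146) spans chr17:32120820-32166852 and Notch4 (ENSMUSG00000015468) spans chr17:34564268-34588503. The ligand genes are Dll4 (ENSMUSG00000027314) at chr2:119325784-119335962, Jag1 (ENSMUSG00000027276) at chr2:137081456-137116644 and Jag2 (ENSMUSG00000002799) at chr12:112907819-112929776, and the target genes are Hes1 (ENSMUSG00000022528) at chr16:30064384-30067796, Hey1 (ENSMUSG00000040289) at chr3:8663359-8667256 and Heyl (ENSMUSG00000032744) at chr4:123233556-123249875.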

How the data were processed

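Single-cell 3′ RNA libraries of tibialis anterior muscle from 2 frail and 3 control mice were analysed from the UMI count matrices that the authors deposited, 1 per library. Per the submitters' processing notes, these were made with bcl2fastq 5.01, Cell Ranger 7.0.0 and Seurat 4.1.2 on GRCm38. The sources used here give no annotation, use of strand or removal of doublets. The values are counts with no normalization. The series text assigns each library to its own mouse, and the library was the unit of replication. The frail libraries are those titled case, and replicate numbers of the control libraries follow their titles.

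Barcodes with under 200 detected genes or over 10% mitochondrial UMIs were left out, the rest were gated by UMIs of marker genes, and UMIs were summed per class and library (at least 20 cells). Sums were tested with edgeR 4.0.16 (R 4.3.3) by its quasi-likelihood F test with TMM scaling and its default low-count filter. Comparisons of classes had the library as a block, frail over control comparisons none, and p-values were adjusted over all genes tested. Differences between frail effects were tested with limma 3.58.1 on the within-library difference of log2 CPM between the sums compared. CPM used all UMIs of a class. The alternatives were RLE scaling, no low-count filter, a 5% mitochondrial limit, removal of 2323 cells with the highest doublet scores (Scrublet in scanpy 1.11.5), each library left out, DESeq2 1.42.0, the replicate number as a block or no library block, looser and stricter gates, and clusters (30 clusters) in place of gates. Doublets were not removed otherwise, beyond setting aside cells of several lineages. The 10 genes, the 44 pathway genes and the marker lists were chosen with earlier results of these data known, and so were the tests. The named genes are the 10, up to 6 called pathway genes a comparison by size of change, and the 3 genes most like each of the 10; all others are gate genes, markers or overlapping genes. The fits were tested on simulated data with known changes and a fixed spread between libraries. A log2 change of 1 was recovered for 47% of changed genes in frail over control endothelial cells and 32% in Pax7 cells. It was recovered for 74% in Gja5 over Gpihbp1 cells and 9% for the frail effect in endothelial over mural cells. For a log2 change of 2 these shares were 100%, 99%, 100% and 78%. The simulated spread was the same for every gene, and only genes above a set mean count were changed. Some of the 10 genes spread widely between libraries, such as Heyl in Rgs5 cells at 135 ± 87.03 CPM, and others had few UMIs. These shares therefore need not hold for the 10 genes.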

Additional observations from a re-analysis of the deposited data

Results flagged for a closer look

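Hes1, the target gene that many signals can induce, lay on opposite sides of the control values in the frail libraries, by class. In Pax7 cells both frail libraries lay above all 3 control libraries, and in Gpihbp1 and Vwf cells both lay below them. In Gja5 and Rbp7 cells the groups overlapped. The Gpihbp1 and Vwf differences rested largely on frail 2, without which Hes1 was at -0.047 (log2) in Gpihbp1 and -0.12 in Vwf cells. The frail effect in Pax7 cells exceeded that in endothelial cells by 1.36 on the log2 scale (SE 0.22). By limma the adjusted p was 0.999 over 12553 genes, so the difference did not pass the threshold. This test was chosen after its values were seen, and no gene passed in it.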

How the results depend on the processing

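Of 38 called differences between classes, 25 kept their direction and their call in every alternative that gave a value, 11 lost the call in at least 1 and 3 turned in at least 1. With clusters in place of gates, Hey1 in Vwf over Gpihbp1 cells was at -2.93 (log2), and Dll4 and Jag2 in Myh11 over Rgs5 cells at 0.49 and 0.84, and Hey1 in frail over control Rgs5 cells at -0.15. The causes were not tested. No cluster was made up of Gja5 cells, so that class had no value there. The cluster that the gated Rbp7 cells named held 80.2 to 141 CPM of Gja5, against 0.572 to 2.47 CPM in the Gpihbp1 clusters. Its mean of Jag1 was 150 CPM, against 60.05 CPM in gated Rbp7 cells. The cluster values of Rbp7 over Gpihbp1 cells therefore do not describe the gated class alone. In Vwf over Gpihbp1 cells 4 of the 10 genes were called, 2 without the library block, 7 with clusters and 2 to 4 with each library left out. In Rbp7 over Gpihbp1 cells 6 were called, 3 without the library block and 2 to 5 with each library left out. In frail over control endothelial cells 1 was called with no low-count filter and 1 with DESeq2. In Pax7 cells 1 was called with no filter and 0 to 1 with each library left out. Hey1 in frail over control Gja5 cells ran from -0.25 to 0.58 with each library left out, and its effect in endothelial over mural cells from -0.080 to 0.45, with -0.024 at a 5% mitochondrial limit.

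No label pairs the mice. With a replicate block by number, the Hey1 effect in endothelial over mural cells was at -0.069 and none of the 10 genes was called in frail over control. Same-numbered libraries deviated together with r = -0.01 and 0.17 over 19989 genes, and differently numbered ones with r from -0.17 to 0.12. With only 2 frail libraries, the deviations of frail 1 from the frail mean mirror those of frail 2. These r values therefore cannot show whether the numbers pair mice. Over all genes, frail over control called 0 to 8 genes per set, 1 to 366 with that block, 15 to 320 with no filter and 0 to 290 with DESeq2. Rbp7 over Gpihbp1 cells called 1305 genes, 155 without the library block, 706 with looser gates, 723 at the 5% limit, 730 with DESeq2, 853 without frail 2 and 3885 with clusters, and Vwf over Gpihbp1 cells 2440, with 921, 1622 (looser) and 3786 (clusters). The precision was limited by 2 against 3 libraries and by classes with as few as 31 Gja5 or 49 Pax7 cells in a library.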
